A study of Mus musculus with 2 samples.

Results

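The S100 transcripts of neonatal skin comprise 10 genes of the deposited table, chosen by name out of 44166 listed genes: S100a3, S100a4, S100a6, S100a7a, S100a8, S100a9, S100a10, S100a11, S100a14 and S100a16. They were measured in whole skin of C57BL/6 mice at 3 days of age by RNA sequencing. One library was labelled KO and carried the genotype RNF31fl/fl-K14-cre, meaning floxed alleles of Rnf31 together with Cre under the keratin 14 (K14) promoter. That promoter works in the basal layer of epidermis and hair follicle, so recombination is inherited by the keratinocytes these cells produce and is not aimed at dermal or immune cells. The other was labelled WT and wildtype, with no floxed allele or Cre named, so an effect of Cre alone cannot be told apart from one of the floxed gene. Each genotype had 1 library, how many animals it came from is not stated in the labels, and every difference below lies between 2 libraries without a replicate check or a test.

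S100 proteins are small calcium-binding proteins that mostly work as dimers. Inside cells they bind annexins and cytoskeletal proteins when calcium rises. Some leave stressed or dying cells and act as alarmins, which engage receptors such as Toll-like receptor 4 and RAGE on other cells. In skin the pair S100A8 and S100A9, together called calprotectin, is made by neutrophils and by activated keratinocytes and binds zinc and manganese. S100A3 is a protein of the hair cuticle, and the remaining members are present at rest in keratinocytes or in other skin cells.

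The members were split into 3 alarmins (S100a7a, S100a8, S100a9), 1 hair member (S100a3) and 6 broadly expressed members. Levels are in FPKM, fragment counts scaled to transcript length and sequencing depth, as the authors deposited them. Ratios divide the level in the library labelled KO by that in the library labelled WT. Log2 ratios were taken after adding 1 to each FPKM, and a gene is called higher or lower where this log2 ratio reached 1 or -1 (2-fold). The 95% intervals are exact binomial (Clopper-Pearson) intervals on fragments estimated from FPKM. They cover counting error at most and say nothing about animals. The libraries had 20511407 reads (KO, 93.59% aligned) and 19619928 reads (WT, 92.56% aligned). Rnf31 had 5.40 FPKM in the library labelled KO and 3.95 FPKM in the library labelled WT. These gene-level values of whole skin include cells at which the Cre is not aimed, and single exons were not examined. They therefore cannot decide whether the floxed gene was recombined, and the genotypes are written as labels throughout. The 6 epidermal marker genes checked (Krt5, Krt14, Krt1, Krt10, Lor, Krtdap) were all above 1 FPKM in both libraries, and they summed to 24350 FPKM in the library labelled KO, against 4862 FPKM in the library labelled WT. Krt14 alone had 12590 FPKM in the library labelled KO, against 816 FPKM in the library labelled WT. Log2 ratios were positive for 4 of the 6 genes and negative for Krt1 and Krt10.

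Of the 10 members, all of which passed the floor of 1 FPKM, 3 were higher (S100a8, S100a9, S100a11), 1 was lower (S100a3) and 6 were inside the 2-fold rule. Among all 14541 genes above the floor, 7.59% were higher and 4.09% lower. Each list count given here is to be read beside these shares. The median log2 ratio was 0.57 over the members and -0.08 over all genes above the floor. By group it was 7.46 for the 3 alarmins and 0.52 for the 6 broadly expressed members, against -1.57 for the single hair member. The largest and the smallest log2 ratios of the 10 were 8.73 (S100a9) and -1.57 (S100a3).

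**Figure D1:**
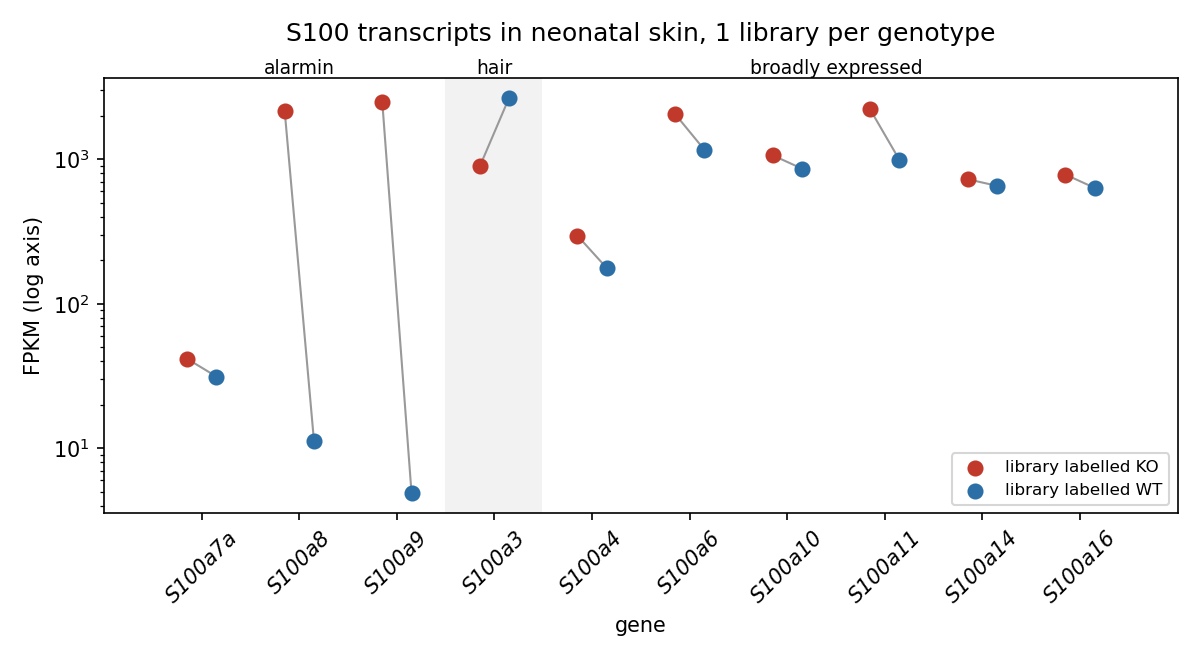
FPKM on a log axis of the 10 S100 genes in the library labelled KO (red, left) and the library labelled WT (blue, right), 1 point per library, joined per gene, with no replicates. S100a8 and S100a9 stand at 2149.8 and 2489.5 FPKM in the library labelled KO, against 11.2 and 4.88 FPKM in the library labelled WT, and S100a3 is the member with the lower point in the library labelled KO.

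The promoters of the 4 members past the 2-fold rule are shown because these genes differed in direction and in size. Each line is the RefSeq window from 250 bases before to 50 after the annotated start, in GRCm38.p6, printed 5′ to 3′ on the gene's strand. They are chr3:90668821-90669120 (plus strand, S100a8), chr3:90695672-90695971 (minus strand, S100a9), chr3:93520246-93520545 (plus strand, S100a11) and chr3:90599964-90600263 (plus strand, S100a3, the window at the start of the transcript used for its length, 1 of 4 windows of this gene). Capitals mark matches on either strand to 3 motifs. One is the TATA box, searched as TATAAA. Another is the AP-1 motif, searched as TGANTCA. The last is a loose C/EBP pattern, searched as TTNNGNAA.
S100a8: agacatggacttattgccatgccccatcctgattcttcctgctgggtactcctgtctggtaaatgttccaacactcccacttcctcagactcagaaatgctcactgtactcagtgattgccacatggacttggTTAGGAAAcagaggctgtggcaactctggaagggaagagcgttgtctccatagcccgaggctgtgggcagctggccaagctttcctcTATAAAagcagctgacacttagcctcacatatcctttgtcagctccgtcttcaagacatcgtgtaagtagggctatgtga
S100a9: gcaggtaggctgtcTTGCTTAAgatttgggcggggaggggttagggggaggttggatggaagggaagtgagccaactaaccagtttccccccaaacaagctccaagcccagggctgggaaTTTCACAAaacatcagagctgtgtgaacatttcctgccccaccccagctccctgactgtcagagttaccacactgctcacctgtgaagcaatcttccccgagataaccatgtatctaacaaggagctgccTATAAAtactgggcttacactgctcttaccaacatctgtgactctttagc
S100a11: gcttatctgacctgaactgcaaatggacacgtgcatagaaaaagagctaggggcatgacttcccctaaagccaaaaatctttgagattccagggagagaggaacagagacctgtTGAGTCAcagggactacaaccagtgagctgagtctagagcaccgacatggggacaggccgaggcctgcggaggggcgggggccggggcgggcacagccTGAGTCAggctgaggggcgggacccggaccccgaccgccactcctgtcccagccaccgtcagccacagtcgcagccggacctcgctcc
S100a3: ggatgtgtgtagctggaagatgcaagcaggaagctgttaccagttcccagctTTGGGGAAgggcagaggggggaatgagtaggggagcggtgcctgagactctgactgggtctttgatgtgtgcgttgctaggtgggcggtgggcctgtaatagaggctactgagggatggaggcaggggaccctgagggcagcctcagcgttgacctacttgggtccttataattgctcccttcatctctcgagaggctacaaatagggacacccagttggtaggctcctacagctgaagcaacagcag

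Of the 8 members with a window, 4 held TATAAA in at least 1 window (S100a3, S100a4, S100a8, S100a9), 3 held the C/EBP pattern (S100a3, S100a8, S100a9) and 2 held the AP-1 motif (S100a11, S100a16). S100a4 held TATAAA and was inside the 2-fold rule. The S100a8 match to TATAAA began 30 bases before the annotated start, and that of S100a9 lay at the annotated start itself. S100a11 held AP-1 matches beginning 136 and 38 bases before the start and no match to the other capitalised motifs, and the S100a3 window shown held 1 C/EBP match. The S100a3 match to TATAAA lay in a window not shown. Among all 32851 promoter windows of the table, 13.6% held TATAAA, 7.81% held TGANTCA and 40.7% held TTNNGNAA. These shares and those below count single windows. A member counts with a match in any of its windows, so its count and these shares are not like for like. A loose NF-kB pattern (GGG, any 5 bases, CC) was found in 50.8% of windows and in 5 of the 8 members with a window (S100a4, S100a6, S100a7a, S100a11, S100a16). The STAT pattern TTCNNNGAA was found in 8.30% of windows and in S100a7a alone among the members. Both were searched on both strands, and in the 4 windows shown no match of one motif overlapped a match of another. A match is a stretch of letters and was not tested as a site.

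The alarmins separated into a pair and a single gene. S100a9 (ENSMUSG00000056071, chromosome 3, 90692632 to 90695721 in GRCm38, minus strand) had 2489.5 FPKM in the library labelled KO, against 4.88 FPKM in the library labelled WT, a ratio of 511 (337 to 784). S100a8 (ENSMUSG00000056054, chromosome 3, 90668978 to 90670035, plus strand) had 2149.8 FPKM in the library labelled KO, against 11.2 FPKM in the library labelled WT, a ratio of 192 (145 to 261). In the library labelled WT these values rest on about 23.6 and 48.1 estimated fragments, which sets the width of both intervals. The FPKM quotient of S100a9 over S100a8 was 1.16 in the library labelled KO and 0.435 in the library labelled WT. The proteins work as a heterodimer, and the transcript levels were closer to equal in the library labelled KO. By log2 ratio S100a9 ranked 9 and S100a8 ranked 18 from the top of the 14541 genes above the floor. By level they ranked 44 and 53 of all genes in the library labelled KO, and 9543 and 6462 in the library labelled WT.

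S100a7a (ENSMUSG00000063767, chromosome 3, 90654017 to 90658669, plus strand), the mouse psoriasin-type alarmin, differed far less. It had 41.6 FPKM in the library labelled KO, against 31.4 FPKM in the library labelled WT, a ratio of 1.33 (1.19 to 1.48) that lies inside the 2-fold rule. It was the least abundant of the 10 members in the library labelled KO, and in the library labelled WT it was above both S100a8 and S100a9. Of the 30-base stretches of its transcript, 8.39% also occur in transcripts of other genes, 810 genes in all, so a small part of its reads can be shared. S100a8 and S100a9 had 0 such shared stretches. The authors' deposited table gives a q-value of 0.0487 for S100a8 and of 0.0902 for S100a9, although S100a9 had the greater ratio, and of 0.999 for S100a7a. These q-values compare 2 libraries, not the genotypes.

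**Figure D2:**
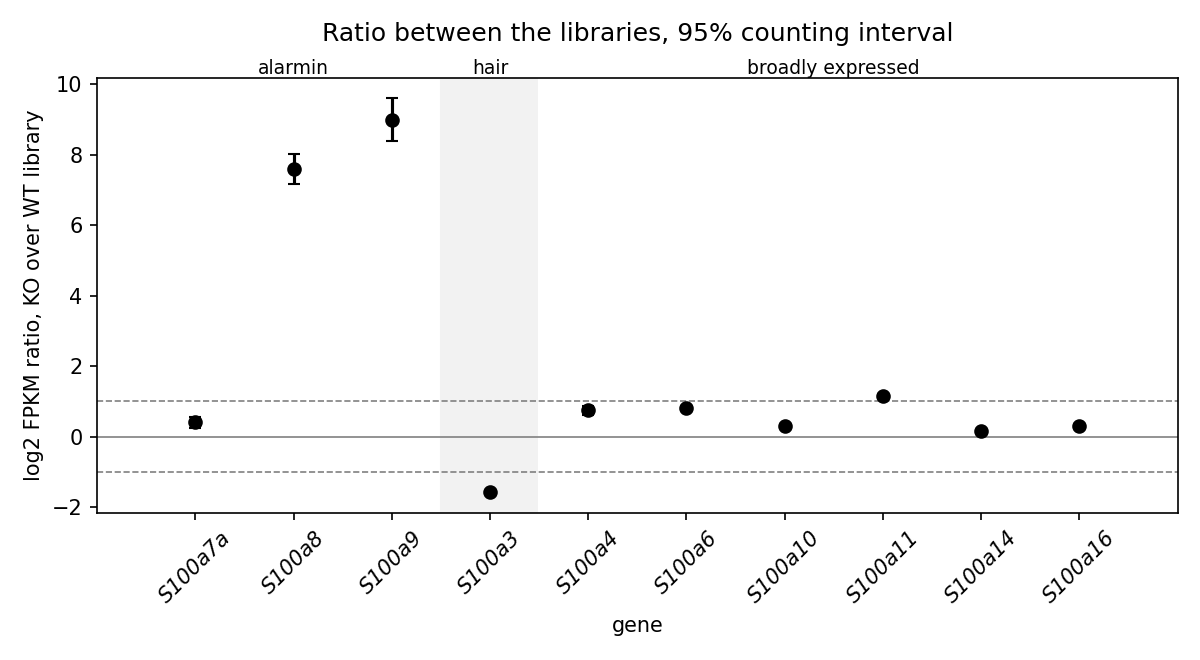
Log2 of the FPKM ratio (library labelled KO over library labelled WT, no pseudocount) for each member, with 95% counting intervals as bars and the 2-fold rule as dashed lines. S100a8 and S100a9 lie between 7 and 10, S100a11 just above the upper line, and S100a3 below the lower line.

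Neutrophils carry calprotectin, and their markers differed among themselves. Of 14 neutrophil markers listed, 6 were called higher (Ngp, Ltf, Retnlg, Mmp8, Mmp9, Stfa2l1), 2 were inside the rule (Prtn3, Camp) and 6 were under the floor. All 6 called higher passed the floor in the library labelled KO only, so they could not have been called lower, and their count is a description. All 14 together summed to 152 FPKM in the library labelled KO, against 8.72 FPKM in the library labelled WT. Of the sum in the library labelled KO, 98.6 FPKM came from Stfa2l1, a stefin whose family holds closely similar genes. The granule protein gene Ngp and the resistin-like gene Retnlg had 6.37 and 26.2 FPKM in the library labelled KO, whereas the library labelled WT has both at 0. Ly6g, the defining surface marker, was listed at 0 in both libraries, and the primary granule genes Mpo, Elane and Ctsg were under 1 FPKM in both. Csf3r and Cxcr2 were also under the floor, at 0.457 and 0.617 FPKM in the library labelled KO. In the library labelled WT these genes had 0 and 0.0626 FPKM. S100a8 was at 2149.8 FPKM in the library labelled KO. Genes differ in transcripts per cell, so this level and the list sum of 152 FPKM cannot be compared as amounts of cells. The part of neutrophils in the difference of the pair was not tested. In whole tissue, more cells of a type and more RNA per cell cannot be told apart.

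Of 7 genes of other metal-binding and antimicrobial secreted proteins, 6 were called higher and 0 lower, where 7.59% and 4.09% of all genes above the floor were. Of these 6, Ltf and Chil3 passed the floor in the library labelled KO only, and of the 5 genes above it in both libraries 4 were higher. Slpi, a secreted protease inhibitor of epithelia, was at 181 FPKM in the library labelled KO, against 2.05 FPKM in the library labelled WT (ratio 88.4, 58.6 to 142). Lcn2, lipocalin 2, which binds iron-carrying siderophores, was at 64.3 FPKM in the library labelled KO, against 1.05 FPKM in the library labelled WT (ratio 61.5, 34.9 to 119). Chil1, a chitinase-like protein, was at 39.1 FPKM in the library labelled KO, against 5.21 FPKM in the library labelled WT. Camp, the cathelicidin precursor, stayed inside the rule (6.38 FPKM in the library labelled KO, against 3.53 FPKM in the library labelled WT). Camp and Ltf are also in the neutrophil list.

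The hair member was lower. S100a3 (ENSMUSG00000001021, chromosome 3, 90560578 to 90602702, plus strand) had 894 FPKM in the library labelled KO, against 2662 FPKM in the library labelled WT, a ratio of 0.336 (0.327 to 0.345). It was the most abundant member in the library labelled WT, where it ranked 33 of all genes, and it ranked 130 in the library labelled KO. Its share of the FPKM of the 10 members was 7.03% in the library labelled KO, against 37.0% in the library labelled WT. The authors' deposited table gives it a q-value of 0.961.

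Keratins of the hair shaft and cuticle were lower in the same library. Of 13 matched markers of hair shaft and cuticle, 12 were lower and 0 higher, their median log2 ratio was -1.34, and their summed level was 980 FPKM in the library labelled KO, against 3214 FPKM in the library labelled WT. The ratio of these sums was 0.305, and that of S100a3 was 0.336. Ratios of single genes in the list ran from 0.184 (Krt35) to 0.720 (Hephl1). The cuticle keratins Krt32 and Krt82 had ratios of 0.363 (0.337 to 0.391) and 0.439 (0.394 to 0.488). Tchh of the inner root sheath, outside this list, was at 1194 FPKM in the library labelled KO, against 892 FPKM in the library labelled WT. The part of hair follicle content in the difference of S100a3 was not tested.

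Peptidylarginine deiminase 3 converts arginines of S100A3 to citrulline in the cuticle. Its gene Padi3 was at 70.2 FPKM in the library labelled KO, against 126 FPKM in the library labelled WT, a ratio of 0.555 (0.532 to 0.579) inside the 2-fold rule. The FPKM quotient of S100a3 over Padi3 was 12.7 in the library labelled KO and 21.05 in the library labelled WT. None of the 3 deiminase genes above the floor was past the rule, and all 3 had negative log2 ratios, with Padi4 at -0.67 and Padi1 at -0.38. Padi2 and Padi6 stayed under 1 FPKM.

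The 6 broadly expressed members had log2 ratios from 0.15 to 1.16, and S100a11 alone was past the rule. Most are made by keratinocytes, and of the 6 epidermal markers 3 were higher and 1 lower in the library labelled KO, with ratios of 15.4 for Krt14 (basal layer) and 0.278 for Krt10 (suprabasal layers). The part of epidermal content in these members' values was not tested. S100a11 (ENSMUSG00000027907, chromosome 3, 93520488 to 93526287, plus strand), a keratinocyte protein that binds annexin A1 and enters the cornified envelope, had 2211 FPKM in the library labelled KO, against 990.0 FPKM in the library labelled WT (ratio 2.23, 2.16 to 2.31). Of its 30-base stretches, 49.2% also occur in other genes, with the largest shares in the predicted genes Gm12854 (47.3%) and Gm7665 (33.8%). These copies were listed at 13.5 and 15.04 FPKM in the library labelled KO, against 7.69 and 5.39 FPKM in the library labelled WT, far under S100a11 itself. How the authors divided shared reads is not stated in the labels or headers.

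S100a6, calcyclin, was the next in size. It had 2058 FPKM in the library labelled KO, against 1166 FPKM in the library labelled WT (ratio 1.77, 1.72 to 1.81). S100a4, a protein of fibroblasts and other motile cells, had 296 FPKM in the library labelled KO, against 177 FPKM in the library labelled WT (ratio 1.67, 1.53 to 1.83). Both lay inside the 2-fold rule. Transcripts of S100a4 share 58.2% of their 30-base stretches with the overlapping predicted gene Gm42674, which shares 17.1% of those of S100a3 as well and was listed at 0 FPKM in the library labelled KO and 0.366 FPKM in the library labelled WT. None of the 9 fibroblast markers was past the rule (median log2 ratio -0.24), whereas 9 of 12 macrophage and monocyte markers were called higher and 0 lower. Of the 8 above the floor in both libraries 6 were higher, and Fcgr1, Ly6c2 and Itgam passed it in the library labelled KO only. The macrophage and monocyte list summed to 565 FPKM in the library labelled KO, against 219 FPKM in the library labelled WT. The part of these cells in the value of S100a4 was not tested.

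The other 3 differed least. S100a10, the p11 light chain that pairs with annexin A2, had 1066 FPKM in the library labelled KO, against 862 FPKM in the library labelled WT (ratio 1.24, 1.20 to 1.28). S100a16 had 784 FPKM in the library labelled KO, against 634 FPKM in the library labelled WT (ratio 1.24, 1.20 to 1.27). S100a14, an epithelial member, had 727 FPKM in the library labelled KO, against 655 FPKM in the library labelled WT (ratio 1.11, 1.08 to 1.14). The counting intervals of these 3 do not include 1, but they leave out variation between animals, which was not measured. In the authors' deposited table the q-value of all 6 broadly expressed members is 0.999.

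**Figure D3:**
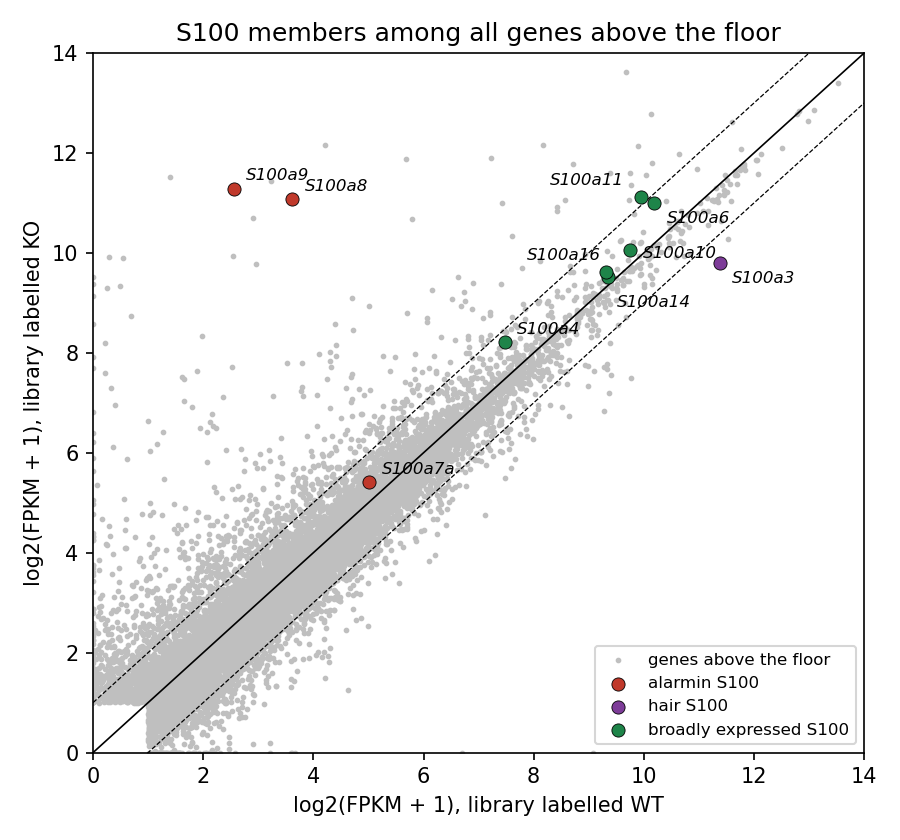
Log2(FPKM + 1) in the library labelled KO (vertical) against that in the library labelled WT (horizontal) for the 14541 genes above the floor (grey) and the 10 members (coloured by group), with the diagonal and the 2-fold rule as lines. S100a8 and S100a9 stand at the upper left, S100a3 below the lower line, and 6 members lie between the lines.

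By level, the order of the members differed between the libraries. In the library labelled KO it ran S100a9, S100a11, S100a8, S100a6, S100a10, S100a3, S100a16, S100a14, S100a4 and S100a7a. In the library labelled WT it ran S100a3, S100a6, S100a11, S100a10, S100a14, S100a16, S100a4, S100a7a, S100a8 and S100a9. Without replicates no spread can be set against neighbours in either order, and the level of short transcripts also depends on the length correction in FPKM, since the transcripts used here have 486 (S100a8) to 1280 (S100a7a) bases. The sum over the 10 members was 12718 FPKM (1.71% of the library's FPKM) in the library labelled KO, against 7193 FPKM (1.07%) in the library labelled WT. Without S100a8 and S100a9 the share was 1.09% in the library labelled KO and 1.06% in the library labelled WT. S100a8 and S100a9 made up 16.9% and 19.6% of the members' FPKM in the library labelled KO, against 0.156% and 0.0678% in the library labelled WT.

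From S100a1 to S100a9 the S100 cluster spans 185 kb of chromosome 3 (90511034 to 90695721) and holds 14 genes of the table, of which 10 were above the floor, all of them S100 genes. Of these 2 were higher and 1 was lower. S100a7a lies 10.3 kb from S100a8, and S100a8 lies 22.6 kb from S100a9, so a member inside the rule neighbours the pair. S100a3 and S100a4 lie 1.07 kb apart and had log2 ratios of opposite sign, -1.57 and 0.74. S100a11 and S100a10 lie on the far side of the epidermal differentiation complex, 28.8 kb apart. Between S100a9 and S100a11, 49 of 60 genes above the floor were higher and 4 lower, where 7.59% and 4.09% of all genes above the floor were. Genes that passed the floor in the library labelled KO only could not have been called lower, and they were not counted apart here.

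**Figure D4:**
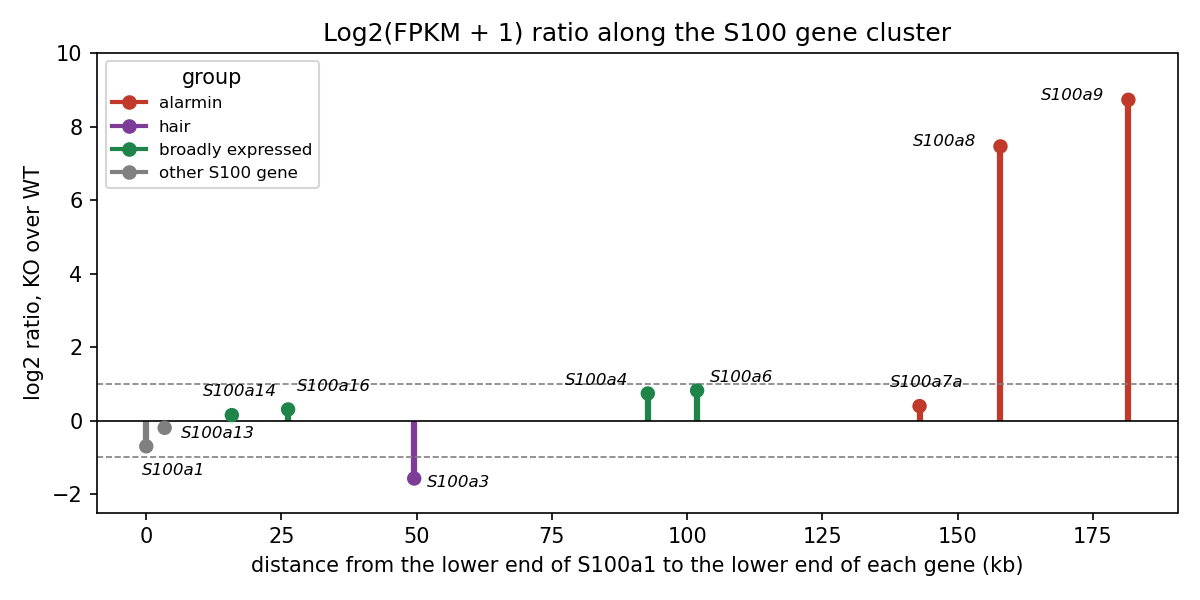
Log2(FPKM + 1) ratio of the S100 genes above the floor, plotted at the distance in kb from the lower end of S100a1, with members coloured by group and other S100 genes in grey, and the 2-fold rule as dashed lines. S100a8 and S100a9 stand at the right end beside S100a7a at 0.40, and S100a3 is the bar below the lower line.

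The other family members in the table were at 111 FPKM or less in both libraries. S100a1 was at 67.9 FPKM in the library labelled KO, against 111 FPKM in the library labelled WT (ratio 0.613, 0.548 to 0.685), and S100a13 was at 55.4 FPKM in the library labelled KO, against 63.6 FPKM in the library labelled WT. S100b, a marker of glia and of some pigment and antigen-presenting cells, was the only one of the 3 above the floor to be past the rule, at 0.605 FPKM in the library labelled KO and 3.03 FPKM in the library labelled WT, and it passed the floor in the library labelled WT only. S100g was listed at 0.552 FPKM in the library labelled KO and at 0 in the library labelled WT. S100a2, S100a5 and S100z were listed at 0 in both. Coding sequences of the 10 members are identical at 45% to 60.6% of alignment positions, gaps included, over 45 pairs (median 50.6%), and S100a8 and S100a9 at 49.7%. The closest pair by sequence was S100a4 and S100a6, with log2 ratios of 0.74 and 0.82. The next, S100a3 and S100a4 at 59.4%, had log2 ratios of opposite sign, -1.57 and 0.74.

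Fused-type relatives, which carry an S100 domain ahead of long repeats and serve the cornified layer or the hair sheath, differed in direction. Of 7 such genes 2 were higher and 2 lower, where 7.59% and 4.09% of all genes above the floor were. Rptn, repetin, which passed the floor in the library labelled KO only, had a ratio of 606 (374 to 1030), and Hrnr, hornerin, a ratio of 8.52 (7.65 to 9.54). Crnn, cornulin, was at 36.8 FPKM in the library labelled KO, against 80.8 FPKM in the library labelled WT, and Flg2 had a ratio of 0.423. Tchh, trichohyalin of the inner root sheath, was at 1194 FPKM in the library labelled KO, against 892 FPKM in the library labelled WT.

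Among intracellular partners, 1 of 8 was higher and 0 lower, where 7.59% and 4.09% of all genes above the floor were. The list median was 0.12. Anxa2 had 1009.9 FPKM in the library labelled KO, against 487 FPKM in the library labelled WT (ratio 2.07, 2.03 to 2.13). Its interval lies above that of S100a10 (1.20 to 1.28). The FPKM quotient of S100a10 over Anxa2 was 1.06 in the library labelled KO and 1.77 in the library labelled WT. Anxa1, the partner of S100a11, had a log2 ratio of 0.93, inside the rule, and the quotient of S100a11 over Anxa1 was 4.32 in the library labelled KO and 3.68 in the library labelled WT. Anxa11 had a log2 ratio of 0.60 (ratio 1.53, 1.42 to 1.65), also inside the rule. Anxa5 and Anxa6 had log2 ratios of 0.00 and -0.35, and the S100A6-binding genes Cacybp and Sugt1 of -0.07 and -0.43.

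Receptors and signal adaptors of extracellular S100 proteins differed less than the alarmin pair. Of 10 such genes 2 were higher and 0 lower, where 7.59% and 4.09% of all genes above the floor were. The list median was 0.43. Cd14, a co-receptor of Toll-like receptor 4, was at 9.06 FPKM in the library labelled KO, against 1.77 FPKM in the library labelled WT (ratio 5.11, 3.64 to 7.26). Myd88, the adaptor of Toll-like receptors, had a ratio of 2.23 (1.98 to 2.52). Tlr4 itself was at 2.3 FPKM in the library labelled KO, against 1.03 FPKM in the library labelled WT, and Cd33 had a ratio of 3.28 (2.15 to 5.01), both inside the rule only through the pseudocount of 1. Ager, which encodes RAGE, was at 10.3 FPKM in the library labelled KO, against 7.13 FPKM in the library labelled WT. Cd14 is also made by monocytes and macrophages, whose marker values are given beside S100a4.

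**Figure D5:**
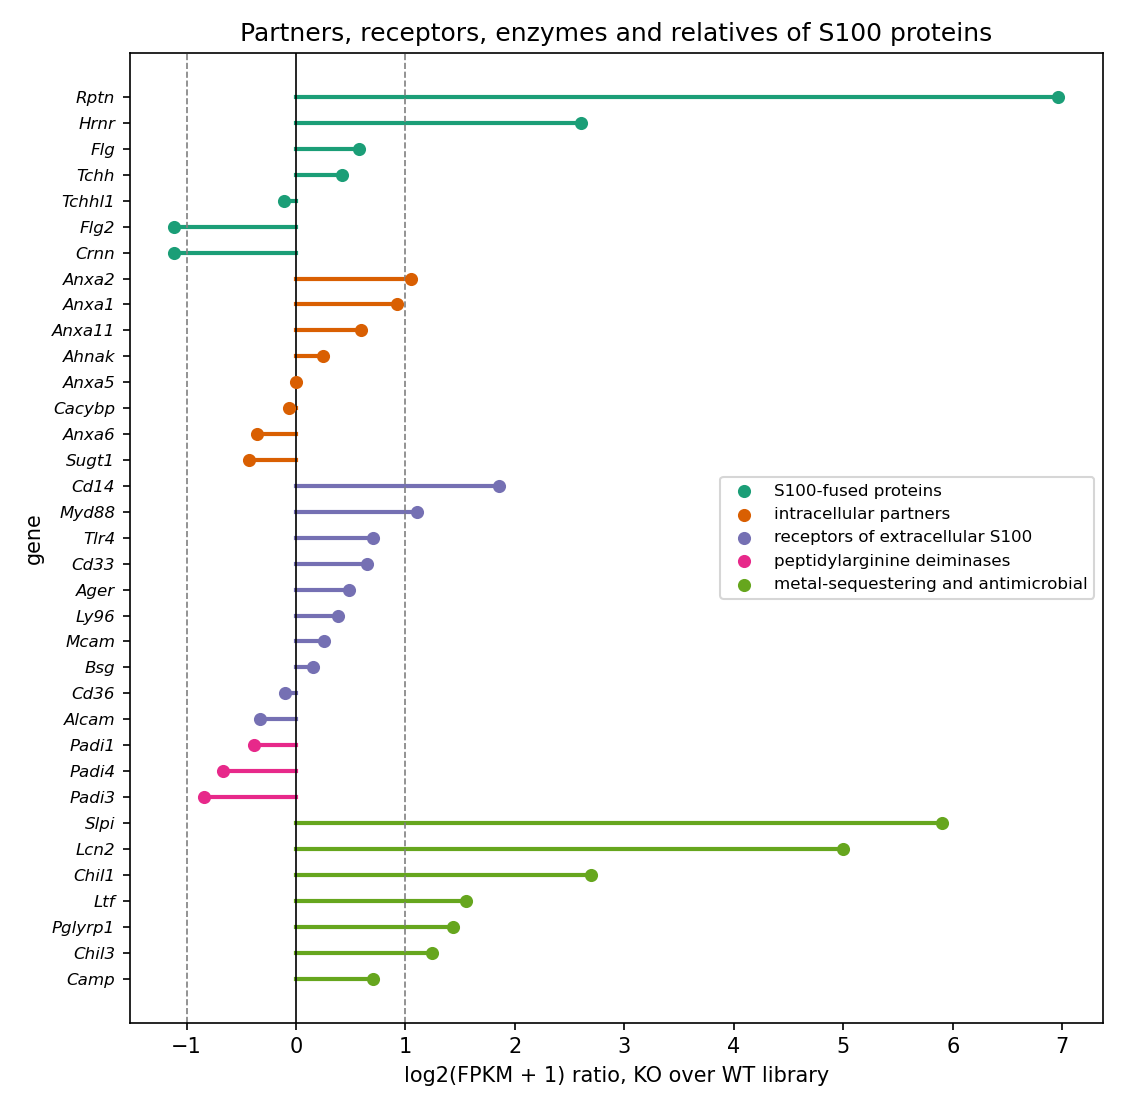
Log2(FPKM + 1) ratio (library labelled KO over library labelled WT) of fused relatives, partners, receptors, deiminases and antimicrobial genes above the floor, 1 point per gene, with the 2-fold rule as dashed lines. Rptn, Slpi and Lcn2 lie above 4, the deiminases lie between -1 and 0, and most partners and receptors lie between the lines.

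Over these 2 libraries, the genes nearest to each member in the plane of the log2(FPKM + 1) values were taken as those of most similar pattern, measured as the straight-line distance. For S100a8 they were Sprr1b (0.53), Lce3c (0.80) and S100a9 (1.08). For S100a9 they were Lce3c (0.68), Sprr1b (0.70) and S100a8 (1.08). S100a7a had nearer neighbours, Dynlt3 (0.01), Rela (0.02) and Pmvk (0.03), since many genes share its middle level. S100a3 was nearest to Krtap8-1 (0.49), a hair keratin-associated protein gene, then AY036118 (0.57) and Lgals1 (0.67).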

How the data were processed

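Skin RNA was sequenced from directional libraries, 1 per genotype, per the labels' protocols. The submitters' processing notes name cutadapt 1.9.1, HISAT2 2.0.4, Cufflinks 2.2.1 and GRCm38. The deposited gene table has the columns of a Cuffdiff comparison and gives FPKM per library and the authors' q-value, per the file headers. A deposited sheet gives the count of reads and the fraction aligned. Annotation release, strand use and handling of shared reads: not given in the sources used here.

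Of 44166 gene identifiers, 43831 were found in GENCODE mouse release M21, which gave positions and lengths. Low FPKM values lie near whole fragments more often than the 50% that would come within 0.25 of one by chance. Of 1223 (KO) and 1155 (WT) low values of single-transcript genes of 300 to 1000 bases, 76.2% and 73.0% came within 0.25 of a whole fragment once fragment lengths of 240 and 230 bases, fitted on these same values, were taken off the transcript. Fragments for the 95% intervals were estimated on that basis, on the longest principal transcript; PCR copies cannot be told from separate molecules. With 1 library per group there was no test. Python 3.11.15, scipy 1.17.1 (intervals) and Biopython 1.88 (alignments) were used.

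Members and the 14 gene lists were chosen with earlier results of these data known. The rule for naming covers all members, other S100 symbols in the table, Rnf31, list genes past the 2-fold rule or among the 4 largest log2 ratios of their list, and the 3 nearest genes of 4 members (predicted genes left out). Not every list gene it covers is named, for example Pglyrp1, with a log2 ratio of 1.43. Named outside that rule, after their values were seen, were Ager, Anxa5, Anxa6, Cacybp, Tchh, Camp, Padi2, Padi6, Ly6g, Mpo, Elane, Ctsg, Csf3r, Cxcr2, Prtn3, Krt1, Lor, Hephl1 and the predicted genes that share sequence. Krt32 and Krt82 fall under the rule but were also picked out after their values were seen. Alternatives covered the pseudocount, the floor, the scaling, the fold threshold and the denominator of the S100 share.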

Additional observations from a re-analysis of the deposited data

How the results depend on the processing

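The counts of 3 higher and 1 lower member were the same with a pseudocount of 0.1, with no floor, with a floor of 5 FPKM and under both other scalings. Every member had more than 5 FPKM in at least 1 library, so the floor settings could not change these counts. At 1.5-fold 5 members were higher and 1 lower, where 14.3% and 13.8% of all genes were. At 4-fold 2 members were higher and 0 lower, where 2.04% and 0.337% of all genes were. Under median of ratios scaling the median of the broadly expressed members was 0.60 and the log2 ratio of S100a3 was -1.49, and with the 50 most abundant genes of either library left out of the scaling they were 0.45 and -1.64. These scalings moved the median of all genes by 0.07 and -0.06. Of all genes, 1483 were higher and 1085 lower with the pseudocount of 0.1 and 777 and 360 with the floor of 5 FPKM, against 1103 and 595 as reported; the 1.5-fold rule gave 2075 and 2012, and the 4-fold rule 297 and 49. With those abundant genes left out of the denominator the members took 2.46% of FPKM in the library labelled KO and 1.46% in the library labelled WT, and without ribosomal protein and mitochondrial genes 2.199% and 1.47%, in the same order. Of 45 values of the other 9 members under 5 alternatives, 35 stayed within their counting interval, 10 moved beyond it, and 0 changed sign. A floor setting cannot alter a member's log2 ratio, so the values under the floor settings stayed by construction. All 10 that moved came under the other scalings, for S100a6, S100a10, S100a11, S100a14 and S100a16. No paired analysis was possible because each genotype has 1 library. Depth limits S100a8 and S100a9 most, through their few fragments in the library labelled WT.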

Other observations

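Low FPKM values lay near whole fragments when a fragment length was taken off the transcript. Among low values of transcripts of 300 to 1000 bases, 76.2% (KO) and 73.0% (WT) came within 0.25 of a whole fragment that way, against 41.4% (KO) and 43.2% (WT) with the full length. By chance 50% would come that near. The fragment length was fitted to these same values, so the first share is raised by that choice. With the fragment length of 230 bases found for the library labelled WT, the S100a8 transcript of 486 bases had an effective length of 257 bases and the S100a7a transcript of 1280 bases one of 1051 bases. Levels set across S100 genes therefore depend on that length correction.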
